A study of Danio rerio with 48 samples.

Results

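Amino acid and peptide solute carriers are membrane proteins that move amino acids and short peptides across the plasma membrane and the membranes of organelles. Their genes were taken from a zebrafish gene count table by lower-case symbol. Every row so written of family slc1, slc3, slc6, slc7, slc15, slc36, slc38 or slc43 was taken, which gave 84 of 36109 rows. Rows with the capitalised symbols SLC15A5, SLC6A13 and SLC7A1 were not matched and were not analysed. The rule used symbols and no measured value, but it was set with earlier results of these data known. One of the 84 rows, slc7a6os, is by its name the gene on the opposite strand of slc7a6 and not a carrier. The libraries were made from total RNA of wild-type zebrafish, with no transgene, drug or other agent named. The groups were yolk at 6, 10, 26 and 48 hours post fertilization (hpf) and whole embryo at 6, 10, 26 and 48 hpf, with 4 libraries in each of the 8 groups. A further 16 body samples were not analysed here. A whole embryo includes its yolk, so the whole-embryo libraries also hold yolk RNA. The labels do not say whether the libraries of a group came from separate clutches, so p-values measure only the spread between these libraries, which may be technical.

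The zebrafish yolk is a store of protein and lipid enclosed by the yolk syncytial layer, a layer of nuclei in shared cytoplasm that supplies the growing embryo. Yolk protein is broken down to peptides and amino acids, which have to cross membranes to reach the cells that use them. Carriers of families slc1, slc6 and slc38 mostly use the sodium gradient to take amino acids up. The light chains of family slc7 exchange one amino acid for another and reach the cell surface only when bound to a heavy chain of family slc3. Carriers of the slc43a1 and slc43a2 type move large neutral amino acids down their gradient without exchange. Families slc15 and slc36 use the proton gradient, slc15 for short peptides and histidine and slc36 for small amino acids. These roles were mostly worked out in mammals, and they are given below as background for the zebrafish genes. Many of the genes exist in zebrafish as a pair of duplicates, marked a and b.

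Library totals ran from 32302472 to 39765045 counts. Levels are given in CPM, read counts scaled to library size with trimmed mean of M values factors, and are not divided by transcript length, so a level is compared with that of the same gene in another group and not with that of another gene. A gene was called higher or lower where edgeR's quasi-likelihood test, fitted to all 32 libraries and 26268 genes, gave a Benjamini-Hochberg adjusted p under 0.05. All 7 markers of the yolk syncytial layer were detected in every group. They were higher in yolk than in whole embryo at 6, 10 and 48 hpf, and 6 of the 7 were higher at 26 hpf. Their summed level in yolk ran from 16067 CPM at 6 hpf to 153621 CPM at 26 hpf, while in whole embryo it stayed between 1346 and 5319 CPM. Replicate 1 of yolk at 26 hpf stood apart from its group, with 394 CPM of summed neural markers where the other 3 libraries had 27.7 to 68 CPM, and 5323 CPM of summed muscle markers where the others had 65.5 to 159 CPM. That library also had the lowest summed syncytial layer markers of its group, 63918 CPM where the others had 110071 to 153621 CPM. Replicate 2 of yolk at 6 hpf held 1879 CPM of summed markers of epidermis and enveloping layer, where the other 3 libraries held 160 to 299 CPM. It also held 85.7 CPM of summed leukocyte markers (others 11.7 to 15 CPM) and 21.1 CPM of summed neural markers (others 7.39 to 10.8 CPM). In yolk at 26 hpf summed epidermal markers were 6900, 3317, 3072 and 373 CPM in replicates 1 to 4, against 14436 to 17497 CPM in whole embryo. At that age 5 of 6 leukocyte markers were higher in yolk (summed level 100 to 207 CPM in yolk, against 29.9 to 45.4 CPM in whole embryo). So were 3 of 6 erythroid markers (426 CPM in replicate 1 and 1750 to 2378 CPM in the others, against 487 to 564 CPM). The part of these markers in the results at 26 hpf was not tested. Called fold changes of yolk over whole embryo printed below are given with and without 1 of 2 libraries where that moves them by over 1.5 times. These libraries are replicate 1 of the 26 hpf yolk and replicate 2 of the 6 hpf yolk. Steps between ages were checked in this way only for the members picked for the largest changes in a yolk step.

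The summed level of the carriers was higher in yolk than in whole embryo at every age, with no overlap between the libraries. It was 32554 ± 3436, 14796 ± 1144, 12146 ± 4085 and 8887 ± 1046 CPM in yolk at 6, 10, 26 and 48 hpf, against 4435 ± 565, 1812 ± 168, 1687 ± 95 and 2492 ± 68.9 CPM in whole embryo at the same ages. These and all means below are mean ± SD of n = 4 libraries, and a fold change is given ± its SE. A few genes held most of the yolk sum. At 6 hpf slc7a8a took 40.8% of the yolk sum, slc3a2b 27.8%, slc43a2b 11.4% and slc7a6 11%, shares of reads that also depend on transcript length. By 48 hpf slc43a2b took 39.2% and slc43a2a 27.7% of the yolk sum, and in whole embryo at 48 hpf slc1a2b had the largest share with 13.7%. In bulk tissue, fewer cells of a type and less RNA per cell cannot be told apart.

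**Figure D1:**
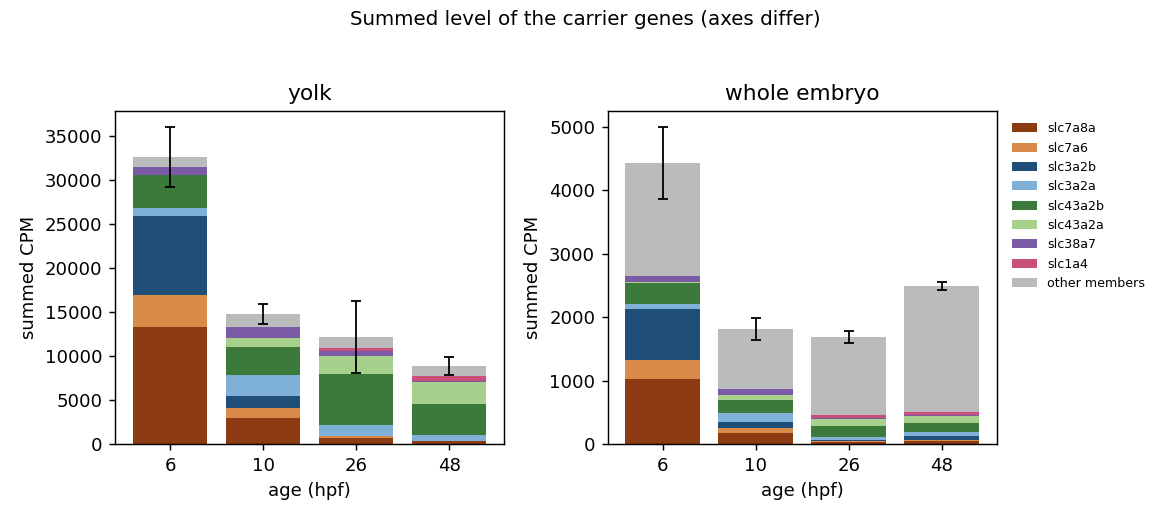
Summed level of the members, in CPM, as stacked bars at 6, 10, 26 and 48 hpf, with yolk on the left and whole embryo on the right. Segments are slc7a8a, slc7a6, slc3a2b, slc3a2a, slc43a2b, slc43a2a, slc38a7, slc1a4 and all other members together. Bars are group means of 4 libraries, error bars are the SD of the whole sum, and the vertical axes differ between the panels. In yolk slc7a8a and slc3a2b fill most of the bar at 6 hpf, and slc43a2b and slc43a2a most of it at 26 and 48 hpf. The other members fill most of the whole-embryo bars at 26 and 48 hpf.

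The make-up of the yolk sum moved from heavy and light chains to facilitators. Light chains summed to 16921 ± 2409, 4359 ± 387, 1073 ± 431 and 524 ± 66.2 CPM in yolk at 6, 10, 26 and 48 hpf, against 1369 ± 344, 290 ± 56.8, 112 ± 13.3 and 234 ± 18 CPM in whole embryo. Heavy chains summed to 9896 ± 841, 3716 ± 408, 1222 ± 403 and 654 ± 180 CPM in yolk, against 889 ± 193, 238 ± 30.5, 69 ± 7.18 and 120 ± 11.1 CPM in whole embryo. The slc43 facilitators summed to 4153 ± 226, 4408 ± 367, 7935 ± 2838 and 6016 ± 720 CPM in yolk, against 631 ± 38.1, 433 ± 47.2, 354 ± 38.1 and 303 ± 65.4 CPM in whole embryo. The sums are descriptions and were not tested as such.

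Member by member, the carriers split between both tissues. At 6 hpf 27 of the 83 tested members were higher and 19 lower in yolk, and of all 26268 genes 24.8% were higher and 27.4% lower. At 10 hpf 26 were higher and 25 lower, against 24.5% and 29.9% of all genes. At 26 hpf the counts were 17 higher and 33 lower, against 20.6% and 25.3% of all genes, and at 48 hpf 21 higher and 34 lower, against 22.8% and 27.5%. The median log2 fold change of the tested members was 0.29, -0.06, -1.02 and -0.88 at the 4 ages, beside -0.05, -0.22, -0.25 and -0.04 over all genes, and it was -0.91 at 26 hpf with members at 0 counts set to their bound. Of the 84 members 83 passed the filter on low counts and only slc6a4b did not. A mean of at least 10 CPM was reached by 21, 24, 32 and 34 members in yolk at 6, 10, 26 and 48 hpf, and by 22, 26, 35 and 44 in whole embryo. Scaling to library totals in place of the trimmed mean moved the median of all genes by -0.37, -0.87, -1.06 and -0.61 at the 4 ages. The counts became 21 higher and 22 lower, 19 and 35, 14 and 55, and 12 and 41. Of all 26268 genes, 5027 were then higher and 8841 lower, 3931 and 12344, 2633 and 14969, and 3029 and 11166. Fitted to the 6 hpf libraries alone with the replicate number as a block, 12 members were lower at 6 hpf, beside 6080 of 25782 genes. Without replicate 1 of the 26 hpf yolk 18 were higher and 36 lower at 26 hpf, and without replicate 2 of the 6 hpf yolk 27 were higher and 17 lower at 6 hpf.

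A set of 11 members was higher in yolk at all 4 ages, 13.3% of the tested members beside 6.53% of all genes: the light chains slc7a6, slc7a7 and slc7a8a, the heavy chain slc3a2a, the facilitators slc43a2b and slc43a3b, and slc15a4, slc36a1, slc38a6, slc38a7 and slc38a9. Their log2 fold changes ran from 1.84 to 3.70 with a median of 3.32 at 6 hpf, and the medians at 10, 26 and 48 hpf were 3.91, 4.20 and 2.69. With library totals as the scaling, slc38a6 lost its call at 10 hpf (adjusted p = 0.096) and slc43a3b at 48 hpf (adjusted p = 0.45). The 7 markers of the yolk syncytial layer had medians of 3.38, 3.77, 4.34 and 4.20 at the same ages. Another 7 members were lower in yolk at all 4 ages, 8.43% of the tested members beside 4.75% of all genes: the system A carriers slc38a2 and slc38a4, slc38a8a, the proline and glycine carriers slc6a7 and slc6a9, the cationic carrier slc7a1 and the light chain slc7a5. Fitted to the libraries of an age alone with the replicate number as a block, slc38a8a lost its call at 6, 10 and 26 hpf (adjusted p = 0.077, 0.051 and 0.13). In that fit slc7a5 (adjusted p = 0.053) and slc7a1 (adjusted p = 0.15) lost theirs at 6 hpf. The 6 hpf call of slc7a1 was also lost without the block (adjusted p = 0.22) and with DESeq2 size factors (adjusted p = 0.078). Leaving out replicate 1 or 3 of that yolk or replicate 2 or 4 of that whole embryo ended it too (adjusted p between 0.063 and 0.18). A further 24 members, 28.9% beside 19.3% of all genes, were higher at one age and lower at another. With library totals as the scaling, some of these lost their only higher call (adjusted p between 0.083 and 0.45). They were slc36a4, slc6a8, slc6a16a and slc7a4 at 6 hpf, and slc6a2, slc6a17 and slc6a1b at 10 hpf. At 48 hpf they were slc43a1a, slc6a22.1, slc6a22.2, slc7a3a and slc7a3b. The share of all genes under that scaling was not counted.

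**Figure D2:**
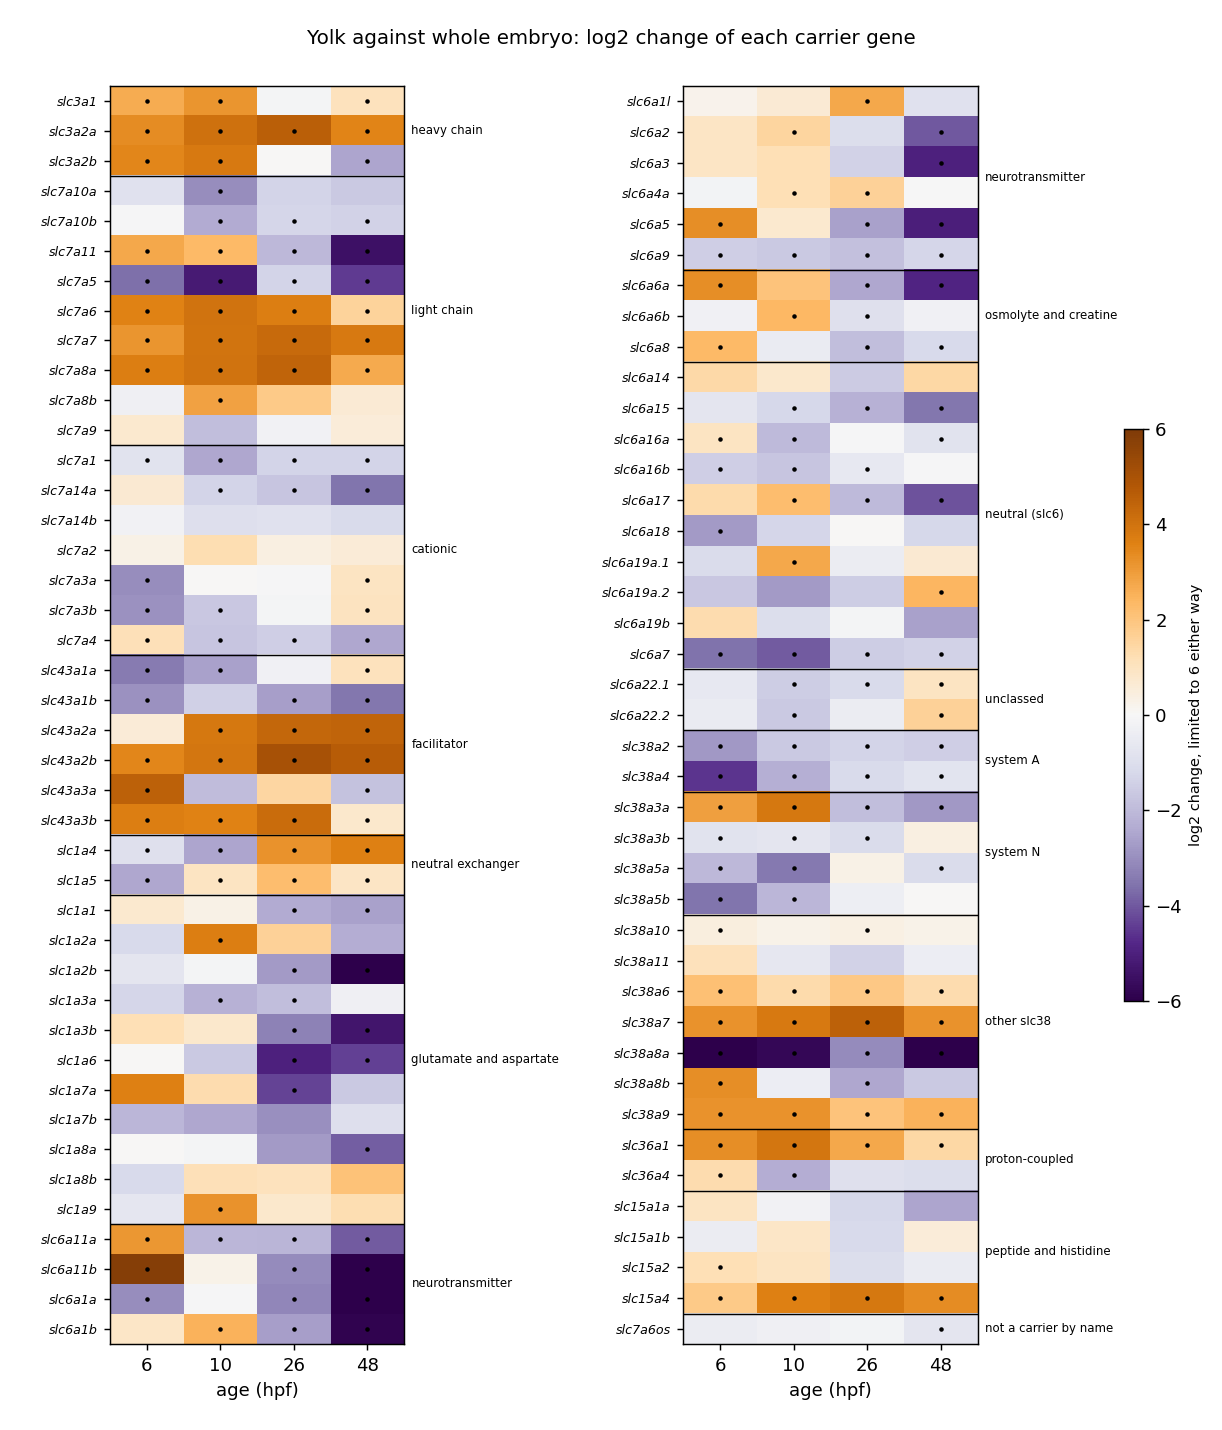
Log2 fold change of yolk over whole embryo for the tested members (rows, grouped by class) at 6, 10, 26 and 48 hpf (columns), with the colour limited to 6 in either direction and a dot where the adjusted p was under 0.05; colours of members with 0 counts in a group depend on the prior count. Light chains slc7a6, slc7a7 and slc7a8a and facilitators slc43a2b and slc43a3b are orange at all 4 ages. Most rows of neurotransmitter carriers of family slc6 are purple at 26 and 48 hpf. Under scaling to library totals 14 members stay higher at 26 hpf and 12 at 48 hpf, beside 2633 and 3029 of 26268 genes.

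The light chain slc7a8a, in mammals an exchanger of neutral amino acids, took the most reads of any carrier in yolk at 6 hpf. Its level was 16140, 13256, 12593 and 11305 CPM in the 4 yolk libraries at 6 hpf, against 1423, 746, 964 and 967 CPM in the whole embryos. At 10 hpf it had 3267, 2651, 3148 and 2756 CPM in yolk, against 237, 146, 172 and 177 CPM in whole embryo. It then had 311, 728, 593 and 1042 CPM in yolk at 26 hpf, against 25.4, 35.1, 32.5 and 32.5 CPM in whole embryo. Yolk and whole-embryo libraries did not overlap at any age, and within yolk the level was highest at 6 hpf. The log2 fold change of yolk over whole embryo was 3.70 ± 0.25 (adjusted p = 3.7e-13) at 6 hpf and 4.01 ± 0.26 (adjusted p = 1.3e-13) at 10 hpf. At 26 hpf the value was 4.41 ± 0.26 (adjusted p = 3.8e-14) and at 48 hpf 2.69 ± 0.24 (adjusted p = 3.2e-10). In yolk it was 4.51-fold lower at 10 than at 6 hpf and 4.42-fold lower at 26 than at 10 hpf. Its duplicate slc7a8b had 7.39 ± 4.17 CPM in yolk at 10 hpf, against 0.987 ± 0.503 CPM in whole embryo (log2 fold change 2.90 ± 0.84, adjusted p = 0.0044), and stayed under 1 CPM in the other groups.

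The other light chains went different ways. The light chains slc7a6 and slc7a7 exchange cationic for neutral amino acids in mammals. For slc7a6 the yolk libraries had 4142, 3310, 3533 and 3293 CPM at 6 hpf, against 381, 257, 271 and 289 CPM in whole embryo, and 1283, 1036, 1223 and 1253 CPM at 10 hpf, against 86.4, 54.1, 73.7 and 82 CPM. The groups stayed apart at all 4 ages, and the log2 fold change was 3.58 ± 0.22 (adjusted p = 4.0e-14) at 6 hpf, 4.02 ± 0.22 (adjusted p = 1.1e-14) at 10 hpf and 1.56 ± 0.20 (adjusted p = 2.6e-07) at 48 hpf. Where the genes overlap, reads of slc7a6 cannot be told from those of slc7a6os because the strand setting of the counting is not given. The row slc7a6os itself was not called at 6, 10 or 26 hpf and lower in yolk at 48 hpf (-0.72 ± 0.20, adjusted p = 0.0044). While slc7a6 fell in yolk at each step, slc7a7 was higher at 10 than at 6 hpf. It had 222, 208, 154 and 189 CPM in yolk at 10 hpf, against 15.9, 23.2, 13.3 and 24.4 CPM in yolk at 6 hpf, a difference of 3.33 ± 0.30 (adjusted p = 1.5e-10) on the log2 scale. In whole embryo slc7a7 had 17.7, 11.5, 9.08 and 11.2 CPM at 10 hpf. At 48 hpf slc7a7 was still at 117, 96.7, 109 and 81.4 CPM in yolk, against 7.76, 7.62, 7.53 and 5.89 CPM in whole embryo, with no overlap (log2 fold change 3.81 ± 0.30, adjusted p = 3.3e-11).

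The light chain slc7a5, in mammals the main exchanger of large neutral amino acids in growing cells, was the reverse. It had 0.385, 0.68, 0.228 and 0.383 CPM in yolk at 10 hpf, against 15.7, 11.1, 17 and 17.6 CPM in whole embryo, and 7.12, 5.05, 6.26 and 6.25 CPM in yolk at 48 hpf, against 130, 115, 141 and 164 CPM in whole embryo. The yolk libraries lay below the whole embryos at each age, with log2 fold changes of -5.18 ± 0.51 (adjusted p = 7.9e-10) at 10 hpf and -4.48 ± 0.45 (adjusted p = 2.6e-09) at 48 hpf. At 6 hpf slc7a5 had 1.51, 8.3, 1.02 and 1.36 CPM in yolk, against 42.2, 21.3, 57.3 and 32.5 CPM in whole embryo (log2 fold change -3.65 ± 0.43, adjusted p = 3.5e-08). Without replicate 2 of the 6 hpf yolk, the library with the high epidermal markers, that log2 fold change was -4.89, and the call was lost (adjusted p = 0.053) in a fit to the 6 hpf libraries alone with the replicate number as a block. The cystine exchanger slc7a11 was higher in yolk at 6 and 10 hpf and lower at 26 and 48 hpf, with 0.126 ± 0.147 CPM in yolk at 48 hpf, against 5.92 ± 1.14 CPM in whole embryo (log2 fold change -5.48 ± 0.71, adjusted p = 2.3e-07), or -6.18 without replicate 4 of that yolk. Of the remaining light chains, slc7a10b, an exchanger of small neutral amino acids in mammals, was lower in yolk at 10, 26 and 48 hpf, slc7a10a was lower at 10 hpf, and slc7a9 was not called at any age. Fitted to an age alone, the call of slc7a10b at 26 hpf (adjusted p = 0.059) and that of slc7a10a (adjusted p = 0.057) were lost.

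**Figure D3:**
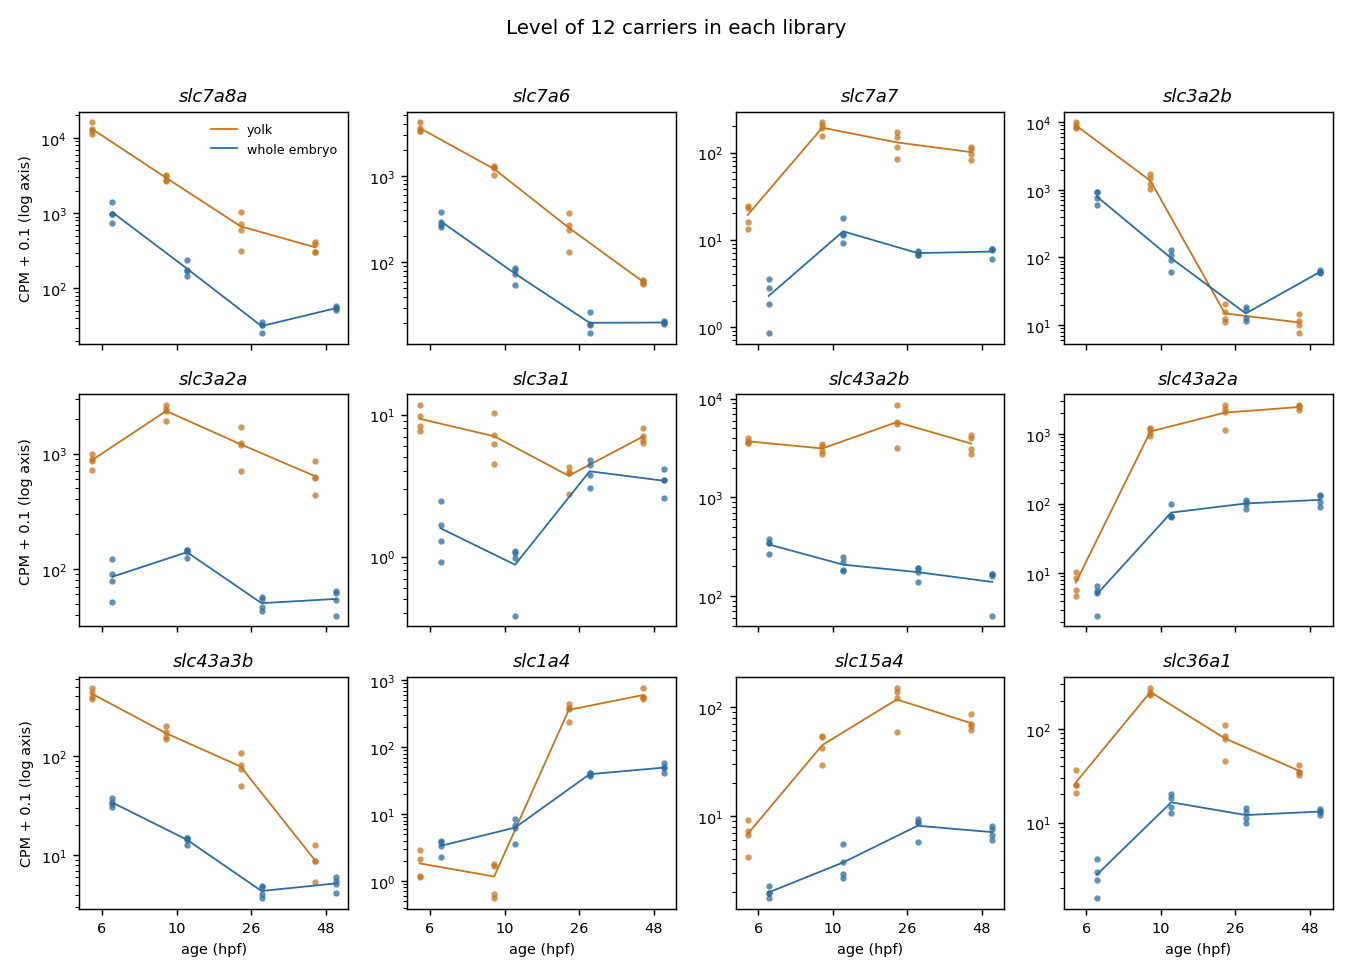
CPM + 0.1 on a log axis against age for 12 carriers in yolk and whole embryo; points are the 4 libraries of a group and lines join the group means. The yolk points of slc7a8a and slc7a6 start highest at 6 hpf and fall with age, those of slc43a2a climb by orders of magnitude at 10 hpf and those of slc1a4 at 26 hpf, and slc3a2a stays above the whole embryos at every age.

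The slc3 heavy chains, the partners of these light chains, exchanged places during the series. At 6 hpf slc3a2b had 9971, 8640, 8265 and 9185 CPM in yolk, against 932, 935, 589 and 749 CPM in whole embryo. By 26 hpf slc3a2b had 12.1, 15.4, 11 and 20.6 CPM in yolk, against 18.4, 12.7, 11.3 and 16.7 CPM in whole embryo, and at 48 hpf 9.8, 14.7, 11.2 and 7.54 CPM in yolk, against 58.3, 64.6, 61.1 and 61.5 CPM. The yolk libraries were above the whole embryos at 6 hpf, mixed with them at 26 hpf and below them at 48 hpf. The log2 fold change was 3.49 ± 0.24 (adjusted p = 4.2e-13) at 6 hpf and 3.82 ± 0.24 (adjusted p = 1.3e-13) at 10 hpf. Later it was 0 ± 0.22 (adjusted p = 1.0) at 26 hpf and -2.51 ± 0.23 (adjusted p = 5.4e-10) at 48 hpf. Within yolk it was 6.58-fold lower at 10 than at 6 hpf, with 1707, 1046, 1487 and 1239 CPM at 10 hpf, and 92.9-fold lower at 26 than at 10 hpf (-6.54 ± 0.28, adjusted p = 2.4e-17 on the log2 scale). The difference between 48 and 6 hpf in its yolk over whole embryo ratio was -6.0 ± 0.33 (adjusted p = 1.9e-14) on the log2 scale.

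The duplicate slc3a2a stayed higher in yolk than in whole embryo, while its yolk level fell after 10 hpf. Within yolk it was called higher at 10 than at 6 hpf, lower at 26 than at 10 hpf and lower at 48 than at 26 hpf. It had 2355, 2639, 2459 and 1903 CPM in yolk at 10 hpf, against 140, 147, 147 and 124 CPM in whole embryo. At 26 hpf it had 712, 1227, 1188 and 1689 CPM in yolk, against 46.7, 56.7, 42.8 and 55.2 CPM in whole embryo. By 48 hpf the libraries had 870, 611, 629 and 433 CPM in yolk, against 64.4, 61.8, 53.7 and 39.3 CPM in whole embryo. No yolk library overlapped with a whole embryo of its age. On the log2 scale the difference was 3.35 ± 0.25 (adjusted p = 2.0e-12) at 6 hpf and 4.07 ± 0.26 (adjusted p = 9.6e-14) at 10 hpf. The ratio then stood at 4.58 ± 0.26 (adjusted p = 2.1e-14) at 26 hpf and 3.54 ± 0.25 (adjusted p = 2.5e-12) at 48 hpf. The difference between 48 and 6 hpf in that ratio was 0.19 ± 0.32 (adjusted p = 0.67). The log2 ratio of slc3a2a to slc3a2b counts averaged -3.38 ± 0.11, 0.79 ± 0.38, 6.33 ± 0.36 and 5.88 ± 0.45 in yolk at 6, 10, 26 and 48 hpf, against -3.27 ± 0.24, 0.57 ± 0.47, 1.79 ± 0.34 and -0.19 ± 0.34 in whole embryo. At 6 and 10 hpf the ratios of both tissues overlapped, and at 26 and 48 hpf every yolk library was above every whole embryo. The third heavy chain, slc3a1, which in mammals pairs with slc7a9 to take up cystine and cationic amino acids, was far lower in counts. Its libraries had 4.42, 10.2, 6.11 and 7.04 CPM in yolk at 10 hpf, against 0.284, 0.986, 0.958 and 0.875 CPM in whole embryo (log2 fold change 3.16 ± 0.35, adjusted p = 7.6e-09). Its mean level over the 4 ages was 9.26 ± 1.8, 6.95 ± 2.44, 3.61 ± 0.653 and 6.93 ± 0.769 CPM in yolk and 1.48 ± 0.657, 0.776 ± 0.331, 3.89 ± 0.779 and 3.32 ± 0.652 CPM in whole embryo. It was higher in yolk at 6, 10 and 48 hpf, but the call at 48 hpf (1.06 ± 0.32, adjusted p = 0.0071) was lost with library totals (adjusted p = 0.29). Of the 3 heavy chains only slc3a2a was called at 26 hpf, and under library totals the other 2 were lower in yolk there.

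The slc43 facilitators held most of the summed carrier level in yolk at 26 and 48 hpf. In mammals slc43a1 and slc43a2 carry leucine, isoleucine, valine, phenylalanine and methionine. The level of slc43a2b was 3167, 5798, 5534 and 8626 CPM in yolk at 26 hpf, against 139, 194, 175 and 190 CPM in whole embryo, and 4235, 3066, 3951 and 2763 CPM in yolk at 48 hpf, against 168, 158, 166 and 63.3 CPM in whole embryo. The lowest yolk library at 26 hpf was replicate 1, the one with neural and muscle markers, and still stood far above the whole embryos. The log2 fold change was 3.47 ± 0.26 (adjusted p = 2.8e-12) at 6 hpf and 3.91 ± 0.27 (adjusted p = 4.7e-13) at 10 hpf. It was 5.05 ± 0.28 (adjusted p = 1.3e-14) at 26 hpf and 4.66 ± 0.28 (adjusted p = 9.4e-14) at 48 hpf. In whole embryo at 48 hpf replicate 4 was low for slc43a2b, and the summed yolk syncytial layer markers were also lowest there, at 2240 CPM where the other 3 libraries had 2792 to 3709 CPM; the part of this in the result was not tested.

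Its duplicate slc43a2a was low in yolk at 6 hpf and high at 10 hpf. It had 1224, 1172, 931 and 1019 CPM in yolk at 10 hpf, against 4.6, 8.34, 5.63 and 10.4 CPM in yolk at 6 hpf, a 150-fold difference (7.23 ± 0.33, adjusted p = 9.2e-17 on the log2 scale). In whole embryo it had 99.8, 67.4, 65.9 and 64.2 CPM at 10 hpf, against 5.48, 6.52, 5.04 and 2.37 CPM at 6 hpf (log2 fold change 3.93 ± 0.28, adjusted p = 4.3e-12). At 48 hpf slc43a2a had 2613, 2552, 2208 and 2405 CPM in yolk, against 127, 131, 107 and 88.5 CPM in whole embryo. The groups overlapped at 6 hpf, where the test gave 0.58 ± 0.26 (adjusted p = 0.059), and were apart at 10, 26 and 48 hpf, with 3.87 ± 0.28 (adjusted p = 1.2e-12), 4.34 ± 0.28 (adjusted p = 2.4e-13) and 4.43 ± 0.28 (adjusted p = 3.6e-13). The log2 ratio of slc43a2a to slc43a2b counts averaged -9.06 ± 0.58, -1.53 ± 0.21, -1.49 ± 0.19 and -0.50 ± 0.32 in yolk at 6, 10, 26 and 48 hpf, against -6.18 ± 0.68, -1.50 ± 0.19, -0.79 ± 0.14 and -0.21 ± 0.48 in whole embryo. The pair thus moved toward equal read counts in yolk and in whole embryo. The whole-embryo libraries also hold yolk RNA, so their ratio is not independent of that in yolk. The part of yolk RNA in it was not tested.

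The slc43a1 pair behaved otherwise. For slc43a1a the libraries had 21.7, 23.8, 19.9 and 24.7 CPM in yolk at 10 hpf, against 127, 119, 157 and 144 CPM in whole embryo, and 50.7, 56.3, 58.2 and 59.4 CPM in yolk at 48 hpf, against 24.8, 27.3, 27.3 and 29.8 CPM in whole embryo. All yolk libraries were below the whole embryos at 10 hpf and all were above them at 48 hpf. On the log2 scale the difference was -3.40 ± 0.19 (adjusted p = 5.2e-15) at 6 hpf and -2.60 ± 0.18 (adjusted p = 7.4e-13) at 10 hpf. At 26 hpf the value was -0.25 ± 0.17 (adjusted p = 0.25) and at 48 hpf 1.04 ± 0.17 (adjusted p = 1.1e-05), where the call was lost with library totals (adjusted p = 0.092). The ratio differed between 48 and 6 hpf by 4.44 ± 0.25 (adjusted p = 2.9e-14). The duplicate slc43a1b had 13.1, 2.55, 0.952 and 0.746 CPM in yolk at 26 hpf, against 23.5, 27.2, 28.5 and 31 CPM in whole embryo, and 1.23, 1.12, 1.54 and 1.28 CPM in yolk at 48 hpf, against 14.2, 15.8, 12 and 16.4 CPM. It was lower in yolk at both ages, with log2 fold changes of -2.65 ± 0.59 (adjusted p = 0.00052) and -3.49 ± 0.61 (adjusted p = 2.5e-05). Without replicate 1 of the 26 hpf yolk the first value was -4.26, and fitted to the 26 hpf libraries alone the first call was lost (adjusted p = 0.057). At 6 hpf slc43a1b had 2 counts over the yolk libraries, against 24 over the whole embryos, a ratio of 0.114 with a 95% counting interval of 0.0131 to 0.46. These yolk counts were all in replicate 2. The log2 fold change in the edgeR fit was -2.93, or -5.63 without that library, a size that then depends on the prior count. The call was lost in a fit to the 6 hpf libraries alone (adjusted p = 0.16).

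**Figure D4:**
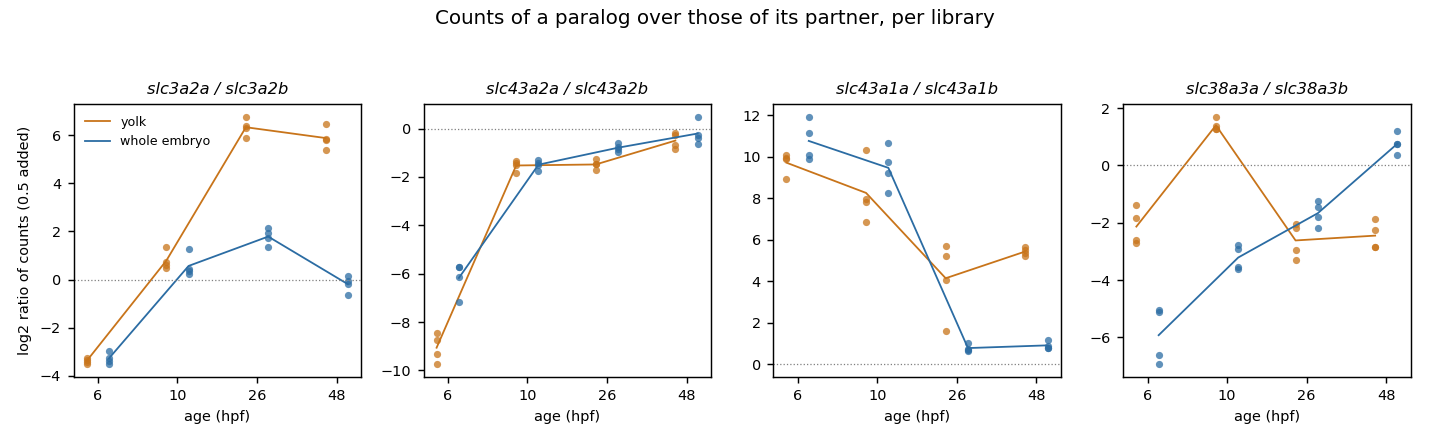
Log2 ratio of counts of the a to the b duplicate, with 0.5 added to each count, against age in hpf for slc3a2, slc43a2, slc43a1 and slc38a3 in yolk and whole embryo; points are libraries and lines join group means. The slc3a2 ratio reaches 6.33 in yolk at 26 hpf where whole embryos average 1.79, and the slc38a3 ratio is above the whole embryos in yolk at 6 and 10 hpf and below them at 48 hpf.

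The third facilitator pair, slc43a3, carries purine nucleobases in mammals rather than amino acids. The libraries had 490, 397, 447 and 372 CPM of slc43a3b in yolk at 6 hpf, against 37.9, 30.3, 34.4 and 32.8 CPM in whole embryo, and 5.29, 8.58, 12.5 and 8.6 CPM in yolk at 48 hpf, against 50, 74.1, 81.9 and 107 CPM in yolk at 26 hpf. The yolk was above the whole embryos at 6, 10 and 26 hpf, with log2 fold changes of 3.66 ± 0.21 (adjusted p = 1.3e-14), 3.58 ± 0.21 (adjusted p = 2.9e-14) and 4.20 ± 0.22 (adjusted p = 4.6e-15). At 48 hpf the groups overlapped, with 5.07, 4.05, 5.45 and 5.87 CPM in whole embryo (log2 fold change 0.78 ± 0.20, adjusted p = 0.0016), and library totals ended that call (adjusted p = 0.45). From 26 to 48 hpf slc43a3b fell in yolk by 3.16 on the log2 scale (adjusted p = 4.6e-12). Its duplicate slc43a3a stayed under 5 CPM in every group and was at 0 counts in the whole embryos at 6 hpf, where the yolk, with 8 counts, was at least 3.65-fold higher than the floor of 3 counts over the group. That call was lost in fits to the age alone (adjusted p = 0.1, and 0.31 with the replicate block) and without replicate 1 of that yolk (adjusted p = 0.05).

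Both sodium-dependent neutral exchangers of family slc1 crossed from lower to higher in yolk. In mammals slc1a4 exchanges alanine, serine and cysteine, and slc1a5 also glutamine. The libraries had 239, 390, 369 and 444 CPM of slc1a4 in yolk at 26 hpf, against 1.69, 1.59, 0.455 and 0.536 CPM in yolk at 10 hpf. That was a 336-fold difference (8.39 ± 0.41, adjusted p = 5.8e-16 on the log2 scale), the largest step of any member within yolk among those called. At 48 hpf slc1a4 had 778, 556, 559 and 517 CPM in yolk, against 57.1, 50.5, 41.4 and 48.8 CPM in whole embryo, with replicate 1 the highest yolk library and no overlap. The log2 fold change of yolk over whole embryo was -2.53 ± 0.34 (adjusted p = 2.6e-07) at 10 hpf, 3.19 ± 0.32 (adjusted p = 1.7e-09) at 26 hpf and 3.61 ± 0.32 (adjusted p = 3.0e-10) at 48 hpf. The ratio differed between 48 and 6 hpf by 4.52 ± 0.45 (adjusted p = 1.8e-09). At 6 hpf the groups overlapped, with 2.76, 1.04, 1.1 and 2.03 CPM in yolk, against 3.21, 3.75, 2.16 and 3.88 CPM in whole embryo (log2 fold change -0.92 ± 0.33, adjusted p = 0.019). This call was lost in a fit to the 6 hpf libraries alone (adjusted p = 0.12) and without replicate 2 or 3 of that yolk or replicate 4 of that whole embryo (adjusted p between 0.054 and 0.077). The mean of slc1a5 was 43.3 ± 11.9, 136 ± 83.3, 227 ± 99.9 and 107 ± 8.36 CPM in yolk at 6, 10, 26 and 48 hpf, against 236 ± 26.3, 69.4 ± 5.75, 48.4 ± 5.81 and 57 ± 4.82 CPM in whole embryo. It was lower in yolk at 6 hpf (-2.44 ± 0.37, adjusted p = 1.9e-06) and higher at 10 (0.97 ± 0.35, adjusted p = 0.02), 26 (2.23 ± 0.36, adjusted p = 1.3e-05) and 48 hpf (0.91 ± 0.35, adjusted p = 0.033). The 10 hpf call of slc1a5 was lost in a fit to that age alone (adjusted p = 0.19, and 0.46 with the replicate block) and without replicate 1 or 4 of that yolk or replicate 3 of that whole embryo (adjusted p between 0.051 and 0.13). Its 48 hpf call was lost with DESeq2 size factors (adjusted p = 0.066) and without any of 5 single libraries (adjusted p between 0.051 and 0.067). Scaled to library totals, neither exchanger was higher in yolk at 10 hpf and only slc1a4 was at 48 hpf.

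Family slc38 divided by system. System A carriers take up small neutral amino acids with sodium, and both tested ones were lower in yolk at all 4 ages. At 6 hpf slc38a4 had 4.43, 6.78, 1.1 and 3.93 CPM in yolk, against 94.7, 78.3, 107 and 109 CPM in whole embryo, and the means later were 43.2 ± 6.98 CPM in yolk at 48 hpf and 74.8 ± 5.47 CPM in whole embryo. The libraries did not overlap at any age, and the log2 fold change was -4.58 ± 0.29 (adjusted p = 1.1e-13) at 6 hpf and -2.29 ± 0.27 (adjusted p = 1.6e-08) at 10 hpf. Later it was -1.17 ± 0.26 (adjusted p = 0.00046) at 26 hpf and -0.79 ± 0.25 (adjusted p = 0.0098) at 48 hpf. That narrowing was itself called, at 3.79 ± 0.37 (adjusted p = 1.3e-09) between 48 and 6 hpf. The mean of slc38a2, the system A carrier induced by amino acid shortage in mammals, was 25.7 ± 8.04, 18.1 ± 6.09, 18.5 ± 4.92 and 33.3 ± 3.51 CPM in yolk and 178 ± 46.3, 55.1 ± 6.87, 46.8 ± 7.02 and 94.1 ± 6.21 CPM in whole embryo. Its log2 fold changes lay between -2.79 at 6 hpf and -1.33 at 26 hpf.

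System N carriers move glutamine, histidine and asparagine in either direction. At 10 hpf slc38a3a had 68.3, 43.6, 74.8 and 59.2 CPM in yolk, against 5.72, 2.83, 4.71 and 3.54 CPM in whole embryo, and at 26 hpf 4.93, 1.36, 1.43 and 2.24 CPM in yolk, against 7.02, 10.2, 11.1 and 10.1 CPM. Yolk libraries lay above the whole embryos at 10 hpf and below them at 26 hpf. The log2 fold change was 2.92 ± 0.40 (adjusted p = 3.6e-07) at 6 hpf and 3.87 ± 0.41 (adjusted p = 4.2e-09) at 10 hpf. The ratio then stood at -1.92 ± 0.40 (adjusted p = 0.00023) at 26 hpf and -2.81 ± 0.40 (adjusted p = 1.0e-06) at 48 hpf. In yolk slc38a3a was 24.3-fold lower at 26 than at 10 hpf. Without replicate 1 of the 26 hpf yolk, the 26 hpf value was -2.53 and the step from 10 to 26 hpf -5.21 on the log2 scale. Its duplicate slc38a3b had 26.5, 18.1, 23 and 24.4 CPM in yolk at 10 hpf, against 144, 133, 124 and 135 CPM in yolk at 6 hpf (log2 fold change -2.54 ± 0.21, adjusted p = 2.6e-11). In whole embryo slc38a3b had 43.1, 33.4, 32.2 and 43.2 CPM at 10 hpf, just above the yolk libraries (log2 fold change -0.72 ± 0.20, adjusted p = 0.0028). The pair was thus called in opposite directions at 6 and 10 hpf. The log2 ratio of slc38a3a to slc38a3b counts was 1.40 ± 0.20 in yolk at 10 hpf and -3.21 ± 0.43 in whole embryo. At 48 hpf it was -2.45 ± 0.49 in yolk and 0.76 ± 0.34 in whole embryo.

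The slc38a5 pair, also of system N, was lower in yolk early. For slc38a5b the libraries had 10, 27.8, 7.94 and 8.88 CPM in yolk at 6 hpf, against 173, 143, 162 and 148 CPM in whole embryo (log2 fold change -3.52 ± 0.27, adjusted p = 5.0e-12). All 4 yolk libraries were below the whole embryos, replicate 2 was the highest of them, and without it the log2 fold change was -4.13. By 48 hpf slc38a5b averaged 114 ± 18.4 CPM in yolk and 111 ± 17.6 CPM in whole embryo (log2 fold change 0.03 ± 0.24, adjusted p = 0.92). For slc38a5a the libraries had 2.62, 0.982, 0.986 and 1.68 CPM in yolk at 10 hpf, against 20.6, 14.1, 18.1 and 15.4 CPM in whole embryo (log2 fold change -3.44 ± 0.37, adjusted p = 3.9e-09). At 26 hpf slc38a5a was 16.1-fold higher in yolk than at 10 hpf, and yolk and whole embryo overlapped there (log2 fold change 0.29 ± 0.33, adjusted p = 0.49).

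Among the other slc38 members, slc38a7 and slc38a9 sit in the lysosomal membrane in mammals, slc38a7 as a glutamine exporter and slc38a9 as an arginine sensor that acts on the growth kinase complex mTORC1. At 26 hpf slc38a7 had 289, 487, 686 and 850 CPM in yolk, against 18.3, 25.4, 25.7 and 30.4 CPM in whole embryo, and at 48 hpf 115, 107, 147 and 160 CPM in yolk. The libraries were apart at each age, with a log2 fold change of 3.19 ± 0.26 (adjusted p = 1.2e-11) at 6 hpf and 3.80 ± 0.27 (adjusted p = 7.1e-13) at 10 hpf. At 26 hpf the value was 4.53 ± 0.27 (adjusted p = 5.7e-14) and at 48 hpf 3.23 ± 0.26 (adjusted p = 3.2e-11). Within yolk slc38a7 was 4.37-fold lower at 48 than at 26 hpf. For slc38a9 the means were 176 ± 23.4, 254 ± 12.1, 48.7 ± 19.5 and 51.6 ± 3.96 CPM in yolk, against 19.1 ± 3.21, 27.2 ± 1.81, 11.7 ± 1.39 and 9.06 ± 0.736 CPM in whole embryo. Its log2 fold change lay between 2.06 at 26 hpf and 3.22 at 10 hpf. The less studied slc38a6 averaged 26.2 ± 11.8, 12.1 ± 2.51, 18.6 ± 5.93 and 12.3 ± 1.17 CPM in yolk and 5.95 ± 1.22, 4.76 ± 0.788, 4.9 ± 0.934 and 5.02 ± 0.628 CPM in whole embryo, higher in yolk by 1.29 to 2.13 on the log2 scale, and the 10 hpf call was lost with library totals (adjusted p = 0.096). The slc38a8 pair went opposite ways at 6 hpf at low levels. There slc38a8b had 12.9, 9.79, 6.36 and 2.71 CPM in yolk, against 1.47, 1.29, 0.297 and 0.162 CPM in whole embryo (log2 fold change 3.29 ± 0.86, adjusted p = 0.0018). At that age slc38a8a had 0 counts in yolk, against 36 counts in whole embryo. Set against a floor of 3 counts over the group, it was at least 8.76-fold lower in yolk. At 26 hpf the log2 fold change of slc38a8a was -3.09, and -6.9 without replicate 1 of that yolk, the only yolk library there with a count. At 48 hpf slc38a8a had 0 counts in yolk, against 262 in whole embryo, at least 58.6-fold lower.

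The peptide and proton-coupled families each had 1 member that was higher in yolk at all 4 ages. In mammals slc15a4 carries peptides and histidine out of the lysosome. It had 4.1, 6.64, 7.24 and 9.01 CPM in yolk at 6 hpf, against 1.66, 1.86, 1.86 and 2.16 CPM in whole embryo. At 26 hpf slc15a4 had 59.3, 122, 137 and 151 CPM in yolk, against 5.63, 8.71, 9.29 and 8.5 CPM in whole embryo, and at 48 hpf 85.6, 66.9, 69.6 and 61.9 CPM in yolk, against 7.91, 7.53, 5.97 and 6.61 CPM. No libraries overlapped, and the log2 fold change was 1.84 ± 0.27 (adjusted p = 1.2e-06) at 6 hpf and 3.61 ± 0.28 (adjusted p = 5.8e-12) at 10 hpf. It was 3.87 ± 0.28 (adjusted p = 2.4e-12) at 26 hpf and 3.34 ± 0.27 (adjusted p = 5.3e-11) at 48 hpf. The peptide carriers of the cell surface averaged at most 7.35 ± 3.92 CPM in any group. Those of the intestinal type in mammals, slc15a1a and slc15a1b, averaged at most 1.29 ± 0.457 CPM in any group and were not called at any age. Between yolk and whole embryo the renal type slc15a2 was called at 6 hpf alone. It had 1.79 ± 1.17 CPM in yolk there, against 0.774 ± 0.322 CPM in whole embryo (log2 fold change 1.20 ± 0.47, adjusted p = 0.032). That call was lost with library totals, in fits to that age alone and without any of 4 single libraries (adjusted p between 0.084 and 0.19). At 10 hpf slc15a2 averaged 7.35 ± 3.92 CPM in yolk, against 3.78 ± 0.91 CPM in whole embryo. It was called higher at 10 than at 6 hpf in both tissues. With DESeq2 size factors 2 members of family slc15 were higher in yolk at 10 hpf, in place of 1, beside 7127 of 26268 genes. In mammals slc36a1 takes glycine, alanine and proline out of the lysosome with protons. It had 248, 229, 238 and 277 CPM in yolk at 10 hpf, against 19.9, 12.6, 14.6 and 18.4 CPM in whole embryo, and 25.2, 36, 20.8 and 24.8 CPM in yolk at 6 hpf, against 2.35, 3.99, 1.46 and 2.86 CPM. The yolk level was highest at 10 hpf and above the whole embryos at each age, with a log2 fold change of 3.32 ± 0.25 (adjusted p = 2.4e-12) at 6 hpf and 3.92 ± 0.25 (adjusted p = 1.2e-13) at 10 hpf. Later it was 2.73 ± 0.24 (adjusted p = 1.1e-10) at 26 hpf and 1.45 ± 0.23 (adjusted p = 4.9e-06) at 48 hpf. Its relative slc36a4 stayed under 12 CPM. It was lower in yolk at 10 hpf (-2.33 ± 0.52, adjusted p = 0.00034) and higher at 6 hpf (1.29 ± 0.48, adjusted p = 0.027). The 6 hpf call was lost with library totals, in fits to that age alone and without any of 4 single libraries (adjusted p between 0.052 and 0.22).

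Glutamate and neurotransmitter carriers made up many of the members lower in yolk at 26 and 48 hpf. None of the 11 glutamate and aspartate carriers was called at 6 hpf, and 1 was lower and 2 were higher at 10 hpf. In yolk 6 were lower at 26 hpf and 5 at 48 hpf, and none was higher at 26 or 48 hpf. Of all genes, 27.4%, 29.9%, 25.3% and 27.5% were lower in yolk at 6, 10, 26 and 48 hpf, and 24.8%, 24.5%, 20.6% and 22.8% higher. Some of these carriers had few counts. At 26 hpf slc1a6 had 2 counts in yolk, against 161 in whole embryo, and slc1a7a had 1, against 58. The 26 hpf call of slc1a1 was lost in a fit to that age alone (adjusted p = 0.057). The 48 hpf call of slc1a8a was lost with the DESeq2 Wald test (adjusted p = 0.053). With library totals slc1a2a lost its higher call at 10 hpf (adjusted p = 0.064). Of the 10 tested neurotransmitter carriers, 6 were lower and 2 higher in yolk at 26 hpf and 8 were lower at 48 hpf. Scaled to library totals, 8 were lower and none higher at 26 hpf, beside 14969 lower and 2633 higher of 26268 genes. At 26 and 48 hpf all 8 neural markers were lower in yolk. Their summed level was 43 to 87 CPM in yolk at 48 hpf, against 1383 to 1473 CPM in whole embryo. The part of these markers in the results was not tested. In whole embryo 9 neurotransmitter carriers were higher at 26 than at 10 hpf, beside 30% of all genes.

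In mammals slc1a2 and slc1a3 clear glutamate into glia. The libraries had 21.3, 2.31, 1.62 and 3.94 CPM of slc1a2b in yolk at 26 hpf, against 46.5, 47, 53.7 and 50.1 CPM in whole embryo, and 1.9, 1.57, 4.72 and 10.7 CPM in yolk at 48 hpf, against 371, 307, 349 and 337 CPM in whole embryo. Yolk was below whole embryo in every library at both ages, and replicate 1 of the 26 hpf yolk, which held the neural markers, was the highest yolk library. On the log2 scale the difference was -2.74 ± 0.63 (adjusted p = 0.00083) at 26 hpf, or -4.24 without that library, and -6.17 ± 0.73 (adjusted p = 8.8e-08) at 48 hpf, or -6.96 without replicate 4 of the 48 hpf yolk. For slc1a3b the means were 2.57 ± 3.62 CPM in yolk at 48 hpf and 102 ± 11.9 CPM in whole embryo (log2 fold change -5.30 ± 0.80, adjusted p = 3.1e-06), and -7.06 without replicate 4 of that yolk, the highest at 7.99 CPM. For slc1a3a they were 40.7 ± 35.7 CPM in yolk at 26 hpf and 152 ± 11.7 CPM in whole embryo (log2 fold change -1.90 ± 0.40, adjusted p = 0.00033). Replicate 1 of that yolk had 93.5 CPM of slc1a3a where the others had 15 to 27.7 CPM, and without it the log2 fold change was -2.72.

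The GABA carriers slc6a1a, slc6a1b and slc6a11b were near 0 in yolk at 48 hpf. At that age slc6a1b had 0.352, 0.505, 1.82 and 3.63 CPM in yolk, against 96.8, 88.5, 95 and 93.7 CPM in whole embryo (log2 fold change -5.88 ± 0.86, adjusted p = 2.1e-06). For slc6a1a the values were 0, 0.112, 0.0569 and 0.894 CPM in yolk and 31, 27.6, 33.4 and 33 CPM in whole embryo (log2 fold change -6.83 ± 0.97, adjusted p = 1.2e-06). Those of slc6a11b were 0.211, 0.168, 0.313 and 0.726 CPM in yolk and 30.4, 24.9, 30.2 and 29.8 CPM in whole embryo (log2 fold change -6.32 ± 1.02, adjusted p = 1.2e-05). In all 3 the yolk and whole-embryo libraries were far apart, and replicate 4, with 87 CPM of summed neural markers where the other 3 had 43 to 55.7 CPM, was the highest yolk library. Without it the log2 fold changes were -6.69 for slc6a1b, -8.96 for slc6a1a and -6.94 for slc6a11b. At 26 hpf slc6a1b had 5.13, 0.478, 0.0952 and 0.959 CPM in yolk, against 10.3, 10.1, 11.4 and 12.5 CPM in whole embryo (log2 fold change -2.67 ± 0.76, adjusted p = 0.0052). The value was -4.46 without replicate 1 of that yolk, and the call was lost in a fit to the 26 hpf libraries alone (adjusted p = 0.061). Earlier the order differed. At 6 hpf slc6a11b had 21 counts in yolk, against 0 in whole embryo, at least 9.59-fold higher, but the call was lost without replicate 2 of that yolk (adjusted p = 0.089). At 10 hpf slc6a1b was higher in yolk (2.52 ± 0.88, adjusted p = 0.017, or 3.5 without replicate 1 of that whole embryo), a call lost with library totals (adjusted p = 0.13) and without replicate 2 of that whole embryo or replicate 3 of that yolk (adjusted p of 0.053 and 0.054).

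Glycine carriers followed the same order at the later ages. In mammals slc6a5 loads glycine into inhibitory neurons and slc6a9 clears it into glia. The libraries had 5.71, 1.83, 0.381 and 2.29 CPM of slc6a5 in yolk at 26 hpf, against 14.4, 15.2, 18.7 and 15.6 CPM in whole embryo (log2 fold change -2.62 ± 0.66, adjusted p = 0.0021), or -3.41 without replicate 1 of that yolk. At 48 hpf slc6a5 averaged 2.15 ± 2.32 CPM in yolk and 72.1 ± 8.06 CPM in whole embryo (log2 fold change -5.06 ± 0.73, adjusted p = 1.7e-06), and -6.17 without replicate 4 of that yolk. For slc6a9 the means were 0.956 ± 0.64, 3.56 ± 1.54, 39.9 ± 25.3 and 54.3 ± 6.37 CPM in yolk at 6, 10, 26 and 48 hpf, against 2.69 ± 0.895, 11.1 ± 3.56, 142 ± 10.7 and 134 ± 11.1 CPM in whole embryo, lower in yolk at each age. The serotonin carrier slc6a4a was higher in yolk at 10 (1.20 ± 0.29, adjusted p = 0.00076) and 26 hpf (1.61 ± 0.29, adjusted p = 3.7e-05). At 48 hpf it had 22.7 ± 5.4 CPM in yolk and 23 ± 2.49 CPM in whole embryo (log2 fold change -0.02 ± 0.28, adjusted p = 0.96). Scaled to library totals, no neurotransmitter carrier was higher in yolk at 10 or 26 hpf. Also higher were the noradrenaline carrier slc6a2 at 10 hpf (1.52 ± 0.55, adjusted p = 0.021) and slc6a1l at 26 hpf (2.76 ± 0.90, adjusted p = 0.014), calls lost without replicate 1 of the 10 hpf whole embryo (adjusted p = 0.074) and replicate 4 of the 26 hpf yolk (adjusted p = 0.16). Both slc6a2 and the dopamine carrier slc6a3 stayed under 4 CPM and were lower in yolk at 48 hpf, with log2 fold changes of -4.02 and -4.97, the second being -6.76 without replicate 4 of that yolk.

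**Figure D5:**
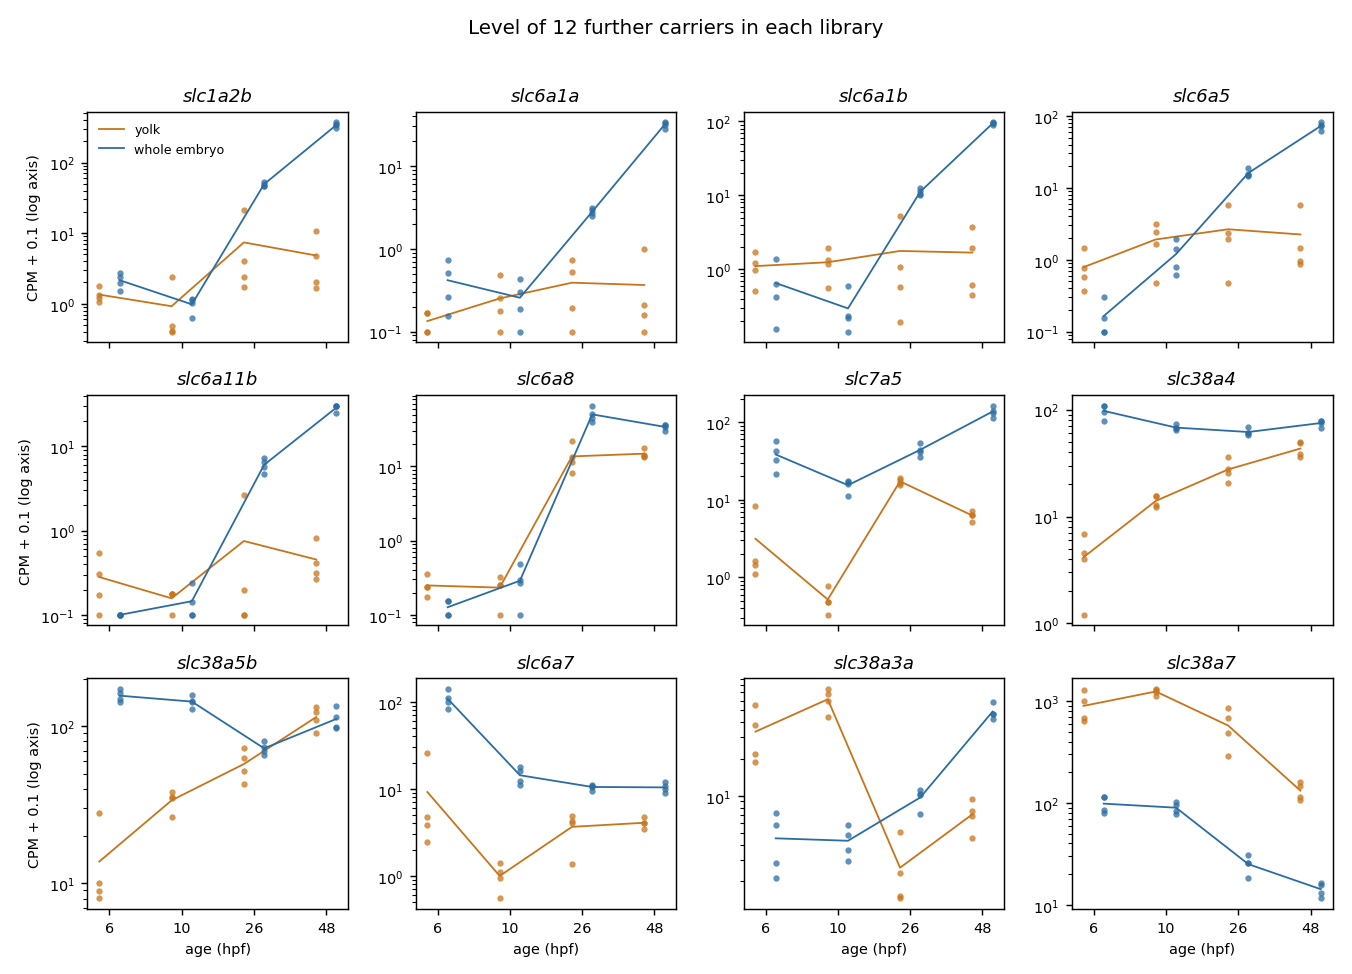
CPM + 0.1 on a log axis against age for 12 further carriers in yolk and whole embryo; points are the 4 libraries of a group and lines join the group means. The whole-embryo points of slc1a2b, slc6a1a, slc6a1b, slc6a5 and slc6a11b climb from 10 to 48 hpf while the yolk points stay low, with replicate 1 of the 26 hpf yolk the highest of its group for slc1a2b at 21.3 CPM.

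The neutral amino acid carriers of family slc6 were mostly low in yolk. In mammals slc6a7 takes up proline. Its libraries had 4.69, 25.6, 2.34 and 3.73 CPM in yolk at 6 hpf, against 141, 98.3, 112 and 82.7 CPM in whole embryo (log2 fold change -3.57 ± 0.49, adjusted p = 3.9e-07). At 10 hpf they had 0.846, 0.453, 1.29 and 0.995 CPM in yolk, against 11, 16, 17.6 and 12.3 CPM (log2 fold change -3.98 ± 0.53, adjusted p = 2.0e-07). No libraries overlapped at either age, and replicate 2 of the 6 hpf yolk was the highest of its group, so that the log2 fold change without it was -4.92. Averaged over the 16 yolk libraries, the slc6 member with the most reads was slc6a16b, although slc6a9 had more in yolk at 26 and 48 hpf. It had 39.9, 40.9, 24.6 and 22.6 CPM in yolk at 6 hpf, against 90.3, 66.3, 95.8 and 102 CPM in whole embryo, and 47.1, 41.3, 38.1 and 43.3 CPM in yolk at 48 hpf, against 42.6, 45, 41.4 and 46.7 CPM. It was lower in yolk at 6 (-1.47 ± 0.18, adjusted p = 5.0e-08), 10 (-1.69 ± 0.18, adjusted p = 4.3e-09) and 26 hpf (-0.58 ± 0.18, adjusted p = 0.0092) and overlapped at 48 hpf (-0.05 ± 0.18, adjusted p = 0.84). The 26 hpf call was lost without replicate 3 of that yolk (adjusted p = 0.052) and in a fit to those libraries alone (adjusted p = 0.092). The brain carriers of branched-chain and other neutral amino acids known from mammals, slc6a15 and slc6a17, had 3.44 ± 2.11 and 1.11 ± 0.187 CPM in yolk at 48 hpf and 38.4 ± 3.33 and 19 ± 2.26 CPM in whole embryo. Both were lower in yolk there, with log2 fold changes of -3.48 ± 0.53 (adjusted p = 3.6e-06) and -4.10 ± 0.59 (adjusted p = 1.3e-06).

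A few slc6 members were higher in yolk at 48 hpf. In mammals slc6a19 is the neutral amino acid carrier of intestine and kidney, and slc6a19a.2 had 8.22 ± 2.24 CPM in yolk at 48 hpf, against 1.53 ± 0.569 CPM in whole embryo (log2 fold change 2.42 ± 0.79, adjusted p = 0.012). The genes slc6a18, slc6a19a.1 and slc6a19a.2 are neighbours in the RefSeq annotation, and reads of such close copies may be split or lost in counting. The same holds for the neighbours slc6a22.1 and slc6a22.2. At 48 hpf slc6a22.1 had 10.8, 11.7, 9.16 and 8.66 CPM in yolk, against 2.9, 2.23, 1.81 and 0.959 CPM in yolk at 26 hpf, a called step of 2.34 ± 0.33 (adjusted p = 3.6e-06) on the log2 scale. In whole embryo at 48 hpf slc6a22.1 had 4.3, 6.26, 5.25 and 5.08 CPM, below every yolk library (log2 fold change 0.95 ± 0.31, adjusted p = 0.013), but that call was lost with library totals (adjusted p = 0.45). Its neighbour slc6a22.2 averaged 8.09 ± 0.922 CPM in yolk at 48 hpf and 2.66 ± 0.739 CPM in whole embryo (log2 fold change 1.60 ± 0.51, adjusted p = 0.0098). Scaled to library totals, neither of these neighbours and no neutral amino acid carrier of family slc6 was higher in yolk at 48 hpf.

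The creatine carrier slc6a8 appeared in both tissues between 10 and 26 hpf. It had 21.6, 11.2, 8.1 and 13.2 CPM in yolk at 26 hpf, against 0.154, 0.227, 0.152 and 0 CPM in yolk at 10 hpf (log2 fold change 6.63 ± 0.55, adjusted p = 3.5e-11). In whole embryo it had 39.2, 50, 65.8 and 45.4 CPM at 26 hpf, against 0.385, 0.171, 0 and 0.199 CPM at 10 hpf (log2 fold change 8.01 ± 0.54, adjusted p = 1.1e-12). At 26 hpf every yolk library was below every whole embryo (-1.89 ± 0.39, adjusted p = 0.00028). At 6 hpf, at under 0.3 CPM, the order was the reverse (2.32 ± 0.88, adjusted p = 0.028), a call lost with library totals (adjusted p = 0.083) and without replicate 2 or 3 of the whole embryo or replicate 1 of the yolk (adjusted p between 0.075 and 0.091). The taurine carriers slc6a6a and slc6a6b averaged 0.498 ± 0.392 and 10.5 ± 1.61 CPM in yolk at 48 hpf, against 14.9 ± 0.921 and 12.7 ± 1.64 CPM in whole embryo. Of this pair slc6a6a was lower in yolk (-4.89 ± 0.81, adjusted p = 9.7e-06), while slc6a6b missed the threshold (-0.28 ± 0.37, adjusted p = 0.56). Both were lower in yolk at 26 hpf, slc6a6a with -2.48 ± 0.73 (adjusted p = 0.0064) and slc6a6b with -0.91 ± 0.37 (adjusted p = 0.047), the second call being lost without the filter (adjusted p = 0.06) and without any of 7 single libraries (adjusted p between 0.058 and 0.12). Earlier, slc6a6a was higher in yolk at 6 hpf (3.29 ± 0.91, adjusted p = 0.003) and slc6a6b at 10 hpf (2.35 ± 0.41, adjusted p = 1.3e-05). The 6 hpf call of slc6a6a was lost in a fit to that age alone (adjusted p = 0.054), and its value was 7.54 without replicate 1 of that whole embryo.

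Of the carriers of lysine, arginine and ornithine, slc7a1, slc7a3a and slc7a3b were lower in yolk at 6 hpf and divided later. At 6 hpf slc7a3a averaged 21.6 ± 11 CPM in yolk and 178 ± 35.3 CPM in whole embryo (log2 fold change -3.04 ± 0.25, adjusted p = 1.2e-11). At 48 hpf it averaged 77.5 ± 9.67 CPM in yolk and 40.3 ± 4.23 CPM in whole embryo (log2 fold change 0.94 ± 0.23, adjusted p = 0.001). The duplicate slc7a3b followed the same course, lower in yolk at 6 hpf (-2.94 ± 0.44, adjusted p = 1.5e-06) and higher at 48 hpf (1.03 ± 0.41, adjusted p = 0.037). Without replicate 2 of the 6 hpf yolk the first value was -4.42, and the second call was lost with DESeq2 size factors (adjusted p = 0.07) and without any of 6 single libraries (adjusted p between 0.052 and 0.093). By contrast slc7a1 was lower in yolk at all 4 ages, with 11 ± 1.97 CPM in yolk at 48 hpf and 27.4 ± 5.07 CPM in whole embryo (log2 fold change -1.32 ± 0.32, adjusted p = 0.0011). The 6 hpf call of slc7a1 was lost with DESeq2 size factors (adjusted p = 0.078) and in a fit to that age alone (adjusted p = 0.22). A row with the capitalised symbol SLC7A1 was not analysed. The inducible cationic carrier slc7a2 had 16.3, 13, 10.7 and 7.2 CPM in yolk at 48 hpf, against 2.32, 5.74, 4.14 and 3.04 CPM in yolk at 26 hpf (log2 fold change 1.63 ± 0.53, adjusted p = 0.022). The libraries of whole embryo had 8.95, 7.59, 8.77 and 6.26 CPM at 48 hpf, so that yolk and whole embryo overlapped (log2 fold change 0.58 ± 0.52, adjusted p = 0.37). The step of slc7a2 in yolk was lost without replicate 4 of 26 hpf or replicate 1 or 2 of 48 hpf (adjusted p between 0.05 and 0.068). Scaled to library totals no cationic carrier was higher in yolk at 48 hpf.

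The members not yet described were low in most groups. The highest mean among them was 49.3 ± 5.11 CPM, of slc38a10 in yolk at 26 hpf, against 39.4 ± 3.09 CPM in whole embryo (log2 fold change 0.33 ± 0.12, adjusted p = 0.022). Scaled to library totals, slc38a10 was lower in yolk there (-0.77, adjusted p = 3.4e-06), and the call of the higher level was lost without replicate 2 or 4 of that yolk or replicate 3 or 4 of that whole embryo (adjusted p between 0.055 and 0.069). The cationic carrier relatives slc7a4 and slc7a14a averaged 2.11 ± 0.839 and 1.81 ± 0.966 CPM in yolk at 48 hpf, against 11.7 ± 1.7 and 21.5 ± 1.54 CPM in whole embryo, and both were lower in yolk there. The GABA carrier slc6a11a averaged 5.67 ± 4.39 CPM in yolk at 26 hpf, against 25 ± 2.96 CPM in whole embryo (log2 fold change -2.13 ± 0.39, adjusted p = 5.0e-05), or -2.82 without replicate 1 of that yolk. For slc6a16a, which has no role given here, the means at 10 hpf were 1.49 ± 0.497 CPM in yolk and 5.89 ± 2.15 CPM in whole embryo (log2 fold change -1.98 ± 0.30, adjusted p = 1.4e-06). The glutamate and aspartate carrier slc1a1 averaged 1.46 ± 0.311 CPM in yolk at 48 hpf, against 8.89 ± 0.412 CPM in whole embryo (log2 fold change -2.60 ± 0.60, adjusted p = 0.00062). The rest, slc1a2a, slc1a6, slc1a7a, slc1a7b, slc1a8a, slc1a8b, slc1a9, slc6a1l, slc6a4b, slc6a14, slc6a18, slc6a19a.1, slc6a19b, slc7a14b and slc38a11, stayed under 5 CPM on average in every group.

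Across the duplicates, 20 of the 21 a and b pairs had both members tested, and 6 pairs were called in opposite directions at some age. These were 3 pairs at 6 hpf, 1 at 10 hpf, none at 26 hpf and 3 at 48 hpf. Of all genes, 24.8%, 24.5%, 20.6% and 22.8% were higher in yolk at these ages, and 27.4%, 29.9%, 25.3% and 27.5% lower. Opposite calls were not counted for pairs of unrelated genes, so the counts of pairs are a description. With library totals as the scaling, slc43a1a (adjusted p = 0.092) and slc43a3b (adjusted p = 0.45) lost their higher calls at 48 hpf. At 6 hpf slc6a16a lost its own (adjusted p = 0.087), and these pairs were then no longer opposite. The 48 hpf call of slc43a3a was lost without the filter (adjusted p = 0.053) and with the replicate block (adjusted p = 0.052). It was also lost without some single libraries (adjusted p between 0.058 and 0.12). Reads that match both members of a pair may have been split or dropped in counting, which bears on the level of each, and the share of reads that this touches is not known.

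Between neighbouring ages, carriers moved in both directions in both tissues. In yolk 24 tested members were higher and 24 lower at 10 than at 6 hpf, beside 25.8% and 23.4% of all genes. A further step later, 33 were higher and 19 lower at 26 than at 10 hpf, beside 33.3% and 23.1%, and 18 were higher and 17 lower at 48 than at 26 hpf, beside 12% and 16.1%. In whole embryo 22 members were higher and 20 lower at 10 than at 6 hpf, beside 21.2% and 20% of all genes. There 38 were higher and 14 lower at 26 than at 10 hpf, beside 30% and 26%, and 18 were higher and 5 lower at 48 than at 26 hpf, beside 12.5% and 9.83%. Fitted to the libraries of 26 and 48 hpf whole embryo alone, the last step gave 31 higher and 13 lower. Of 26183 genes in that fit, 6455 were higher and 5763 lower. In the fit to all groups the count of lower members was 2 without replicate 1 and 3 without replicate 3 of the 48 hpf whole embryo. Fitted to the libraries of 26 and 48 hpf yolk alone, 8 members were lower at 48 hpf, beside 2788 of 26048 genes. With the replicate number as a block 11 were higher and 8 lower, beside 1847 and 1841 of those genes. Scaled to library totals, 23 were higher and 9 lower in yolk at 48 than at 26 hpf, beside 5986 and 2626 of 26268 genes. In whole embryo 27 were higher and 11 lower at 10 than at 6 hpf under that scaling, beside 7539 and 2865. The yolk over whole embryo ratio was higher at 48 than at 6 hpf for 17 members and lower for 30, beside 25.8% and 25% of all genes. Those that gained included slc1a4, slc43a1a, slc43a2a, slc38a4 and slc38a5b, by 3.55 to 4.52 on the log2 scale. Those that lost included slc3a2b, slc38a3a, slc1a2b, slc6a1b and slc6a5, by -8.35 to -5.45.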

How the data were processed

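Total RNA was extracted with TRIzol and made into NEBNext Ultra II libraries, per the labels' protocols. The deposited values are whole-number counts per gene, made with FastQC 0.12.1, Trim Galore 0.6.10, STAR 2.7.10b and featureCounts 2.0.6 on GRCz11, per the submitters' processing notes. The annotation, the strand and how multiple matches were counted are not given there. Library totals lay between 32302472 and 39765045 counts. Each of the 32 columns was matched to a sample through its label. From the counts, edgeR 4.0.16 (R 4.3.3, limma 3.58.1) fitted 8 group means to the 26268 genes kept by filterByExpr (minimum count 10, minimum total 15), with trimmed mean of M values factors, robust dispersions and quasi-likelihood tests of 11 comparisons, adjusted by Benjamini-Hochberg over all genes and called under 0.05. Standard errors are the log2 fold change over the root of F. The procedure was also run on simulated libraries with changes set in yolk at 6 hpf alone and no pairing. The outcome is not given here, and that run cannot speak to paired libraries. DESeq2 1.42.0, other scalings, no filter, smaller fits, the replicate block and leaving out each library were alternatives. Replicate numbers were taken to pair libraries in the yolk and whole embryo comparisons and in yolk at 10 against 6 hpf. There all 4 same-numbered pairs deviated together (correlations of 0.19 to 0.43 over 9034 genes), while the meaning of a number is not labelled. The main fit had no term for this pairing. Every p-value and SE printed without the replicate block is therefore from an unpaired test. The members and the lists were chosen with earlier results of these data known. Among called members with a mean of at least 10 CPM and no overlap, the 4 of largest change in each direction of a comparison are given in every library. So are the 2 of largest change in each direction of a yolk step, the highest member of each family in yolk and the heavy chains. Of the duplicates called in opposite directions, the 4 pairs with log2 fold changes furthest apart are given in this way. A bound is taken against 3 counts over a group; intervals are at 95% and cover counting error only. Gene names matched RefSeq for 83 of 84 members. No sequence is given, and 16 body samples were not analysed here.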

Additional observations from a re-analysis of the deposited data

Results flagged for a closer look

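For the 33 members given library by library, 264 groups of 4 libraries were checked. In 18 of them the highest or lowest library stood apart from the other 3 by more than Dixon's 95% limit. Chance flags about 1 in 20 groups of normally distributed values. A group with counts in 1 library and 0 in the other 3 is flagged at any count, so that rate does not hold near 0 counts. Replicate 1 of the 26 hpf yolk, which held 5323 CPM of summed muscle markers and 394 CPM of summed neural markers, stood apart for slc1a2b at 21.3 CPM (others 1.62 to 3.94), slc43a1b at 13.1 CPM (0.746 to 2.55), slc6a11b at 2.52 CPM (0 to 0.0952) and slc38a8a at 0.145 CPM, where the other 3 had 0 counts. Replicate 2 of the 6 hpf yolk, with 1879 CPM of summed markers of epidermis and enveloping layer, stood apart for slc6a7 at 25.6 CPM (others 2.34 to 4.69), slc38a5b at 27.8 CPM (7.94 to 10), slc7a5 at 8.3 CPM (1.02 to 1.51) and slc43a1b at 0.0692 CPM, with 0 counts in the others. Replicate 4 of the 48 hpf yolk, with 87 CPM of summed neural markers, stood apart for slc6a5 at 5.61 CPM (0.775 to 1.35) and slc6a1a at 0.894 CPM (0 to 0.112). The part of these markers in the values was not tested.

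Replicate 4 of the 48 hpf whole embryo stood apart for slc43a2b at 63.3 CPM (others 158 to 168) and slc7a7 at 5.89 CPM (7.53 to 7.76). Replicate 1 of the 10 hpf whole embryo did so for slc43a2a at 99.8 CPM (64.2 to 67.4) and slc3a1 at 0.284 CPM (0.875 to 0.986). Single libraries apart were replicate 1 of the 48 hpf yolk for slc1a4 at 778 CPM (517 to 559), replicate 4 of the 10 hpf yolk for slc1a2b at 2.3 CPM (0.302 to 0.379), replicate 2 of the 10 hpf yolk for slc6a11b at 0 CPM (0.0759 to 0.0769) and replicate 2 of the 48 hpf whole embryo for slc6a11b at 24.9 CPM (29.8 to 30.4).

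The yolk over whole embryo ratio differed between 48 and 6 hpf, by the test of that difference in the edgeR fit, for 24 of the 33 members, beside 25.8% of all genes with a higher and 25% with a lower ratio. Most of the 33 were picked for large changes in these libraries, so the count is a description. On the log2 scale it was lower at 48 hpf for slc6a11b (-12.15, a size that depends on the prior count because the 6 hpf whole embryos had 0 counts), slc6a5 (-8.35), slc6a1b (-6.72), slc3a2b (-6.0), slc38a3a (-5.73), slc1a2b (-5.45), slc38a8b (-4.93), slc6a8 (-3.53), slc43a3b (-2.88), slc7a6 (-2.01), slc36a1 (-1.88), slc3a1 (-1.58) and slc7a8a (-1.01). It was higher for slc1a4 (4.52), slc43a1a (4.44), slc43a2a (3.85), slc38a4 (3.79), slc38a5b (3.55), slc6a7 (2.2), slc6a22.1 (1.52), slc15a4 (1.5), slc6a16b (1.42), slc38a3b (1.21) and slc43a2b (1.19). Leaving out 1 library moved some of these by over 1.5 times. Without replicate 4 of the 48 hpf yolk slc6a5 was -9.46, slc6a1b -7.54, slc1a2b -6.24 and slc6a11b -12.78, and without replicate 2 of the 48 hpf yolk slc38a8b was -6.02. Without replicate 2 of the 6 hpf yolk slc6a7 was 3.55, slc38a5b 4.17 and slc6a11b -11.24. Without replicate 2 of the 6 hpf whole embryo slc6a5 was -10.06 and slc6a1b -7.58.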

How the results depend on the processing

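Alternatives were tried on the counts of members called and on the called fold changes of all members between yolk and whole embryo. They were also tried on called differences between 48 and 6 hpf in the ratio of the members given library by library. Of the yolk steps, only those of the members picked for that step were included. Of 346 such counts 14 moved by over 1.5 times. With library totals as the scaling, 12 members were higher in yolk at 48 hpf and 55 lower at 26 hpf. Of all 26268 genes, 3029 were higher at 48 hpf and 14969 lower at 26 hpf. Under that scaling 9 members were lower in yolk at 48 than at 26 hpf, beside 2626 of all genes. In whole embryo 11 were lower at 10 than at 6 hpf, beside 2865 of all genes. Fitted to the libraries of each comparison alone, 31 were higher and 13 lower in whole embryo at 48 than at 26 hpf. Of 26183 genes, 6455 were higher and 5763 lower there. In yolk over that step 8 members were lower, beside 2788 of 26048 genes. With the replicate number as a block in those smaller fits, 12 members were lower in yolk at 6 hpf, beside 6080 of 25782 genes. In yolk at 48 against 26 hpf 11 were higher and 8 lower, beside 1847 and 1841 of 26048 genes. In whole embryo over that step 29 were higher and 13 lower, beside 6458 and 5868 of 26183 genes. The cause was not tested. Leaving out 1 library gave 2 to 5 lower members in whole embryo at 48 against 26 hpf, and no other count moved by over 1.5 times. With the replicate block in the fit to all libraries the call of slc43a3a at 48 hpf was lost (adjusted p = 0.052), no other fold change lost its call, and 27 members were higher and 21 lower in yolk at 6 hpf. For the steps other than 10 against 6 hpf in yolk, same-numbered libraries were not taken as pairs. Their deviations correlated by -0.11 to -0.02 in yolk between 10 and 26 hpf and by -0.23 to 0.09 between 26 and 48 hpf. In whole embryo the correlations were 0.06 to 0.33 (3 of 4 pairs over 0.1) between 6 and 10 hpf. Later they were -0.31 to 0.03 between 10 and 26 hpf and -0.03 to 0.22 (2 of 4) between 26 and 48 hpf. Of 3754 fold changes under alternatives, 174 lost their call and 3579 kept it. The 1 that reversed was slc38a10 at 26 hpf, with -0.77 under library totals in place of 0.33; library totals moved the median of all genes by -1.06 there. Depth limits the members under about 1 CPM, 12 in whole embryo at 48 hpf and up to 42 at 6 hpf, whose fold changes rest on few counts.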

Other observations

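Genes that act beside the carriers were listed by role, with earlier results of these data known. They were tested with trimmed mean of M values factors alone, and the alternatives were not run on them. Library totals moved the yolk over whole embryo median of all genes by -0.37, -0.87, -1.06 and -0.61 at 6, 10, 26 and 48 hpf. Of all genes tested, 24.8% were higher and 27.4% lower in yolk than in whole embryo at 6 hpf, 24.5% and 29.9% at 10 hpf, 20.6% and 25.3% at 26 hpf, and 22.8% and 27.5% at 48 hpf, and the counts below are to be read beside these shares. Amino acid sensing by mTORC1 couples lysosomal and cytosolic amino acids to growth. Of its 23 tested genes, 20 were higher and 1 lower in yolk than in whole embryo at 6 hpf, 20 and 0 at 10 hpf, 17 and 2 at 26 hpf, and 15 and 3 at 48 hpf, with median log2 fold changes of 1.23, 1.53, 1.64 and 0.83 beside medians of all genes of -0.05, -0.22, -0.25 and -0.04. The sestrin gene sesn3 averaged 5742 ± 246 CPM in yolk at 6 hpf and 553 ± 55.8 CPM in whole embryo (log2 fold change 3.38 ± 0.21, adjusted p = 5.1e-14). At that age castor2, another gene of this list, averaged 2589 ± 387 CPM in yolk and 277 ± 47.1 CPM in whole embryo (log2 fold change 3.22 ± 0.22, adjusted p = 2.1e-13). Of 10 tested genes of the response to amino acid shortage, 1 was higher and 7 lower in yolk at 6 hpf, 3 and 3 at 10 hpf, 3 and 2 at 26 hpf, and 3 and 1 at 48 hpf, with medians of -1.10, -0.01, -0.01 and 0.25. The counts at 10 and 26 hpf were near the shares of all genes. The one higher at 6 hpf was ddit3, a stress-induced transcription factor (2.51 ± 0.24 on the log2 scale, adjusted p = 6.1e-10). At 48 hpf shmt2, a mitochondrial enzyme of serine and glycine metabolism, averaged 445 ± 66.8 CPM in yolk and 54.3 ± 5.74 CPM in whole embryo (log2 fold change 3.04 ± 0.26, adjusted p = 1.5e-10).

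Of 19 tested genes for peptidases and partners of the carriers, 8 were higher and 4 lower in yolk at 6 hpf, 12 and 3 at 10 hpf, 11 and 3 at 26 hpf, and 13 and 1 at 48 hpf, with median log2 fold changes of 0.33, 1.78, 1.40 and 1.32. The lysosomal dipeptidyl peptidase gene dpp7 averaged 2505 ± 377 CPM in yolk at 10 hpf and 149 ± 9.13 CPM in whole embryo (log2 fold change 4.07 ± 0.24, adjusted p = 3.6e-14). Of 8 tested amino acid carriers outside the families, 3 were higher and 1 lower in yolk at 6 hpf, 2 and 1 at 10 hpf, 1 and 4 at 26 hpf, and 2 and 5 at 48 hpf, with medians of 1.80, 0.81, -2.18 and -4.48. The counts of higher genes at 10 and 48 hpf were near the shares of all genes. The vesicular GABA and glycine carrier slc32a1 and the vesicular glutamate carrier slc17a6a were lower in yolk at 48 hpf, with log2 fold changes of -6.89 and -5.76. The lysosomal cystine carrier ctns was higher in yolk at all 4 ages, by 1.90 at 6 hpf, 1.81 at 10 hpf, 1.59 at 26 hpf and 1.13 at 48 hpf.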
